A study of Mus musculus with 3 samples.

Results

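The genes described here are 8 ubiquitin ligase genes linked to muscle atrophy (Trim63, Fbxo32, Fbxo30, Fbxo31, Fbxo21, Cblb, Traf6 and Mul1) and 2 FoxO transcription factor genes (Foxo1 and Foxo3), chosen by name from a table of 24401 loci. All 10 were found, each at 1 locus, and all 10 passed the filter on low values, a mean of 1 FPKM or more over the 3 libraries. FPKM is the number of sequenced fragments scaled by transcript length and by library size. The cells were C2C12 myotubes, which form when this mouse myoblast line fuses, here over 72 hours of differentiation in DMEM that held 1 µg/ml insulin and 2% horse serum. The growth medium held 10% serum. For 24 hours the cells received DMEM (control), medium conditioned for 24 hours by the human pancreatic cancer line S2-013 (conditioned media), or conditioned medium to which the plant polyphenol resveratrol was added at 50 µM. There was 1 library per group, so the differences below have no replicate check, SD or test. The serum content of the media during treatment and the solvent of resveratrol were not given in the sources used here, and a culture with resveratrol alone was not analysed here.

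Ubiquitin ligases pick the proteins that are tagged with ubiquitin for the proteasome or for signalling. In wasting muscle, Trim63 (MuRF1, a RING ligase of the sarcomere) and Fbxo32 (atrogin-1, the substrate-binding F-box subunit of an SCF ligase) are the classic marker genes. FoxO factors are transcription factors that AKT keeps out of the nucleus when insulin or IGF signalling is active, and that drive Trim63, Fbxo32 and autophagy genes when it falls. Measured mRNA says nothing of FoxO location or of ligase activity.

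In the conditioned media library, Trim63, Foxo3 and Fbxo32 were the members furthest above control, at 1.99, 1.82 and 1.63 times its FPKM. Foxo1 followed at 1.41 times, Fbxo21 and Cblb lay near 1.29 times, and Traf6, Fbxo31, Fbxo30 and Mul1 lay between 0.975 and 1.11 times. With resveratrol added, Trim63, Foxo1 and Foxo3 stood below the conditioned media library but above control, while the other 7 members had their highest value of the 3 libraries. The lowest value was in control for 9 members and in conditioned media for Mul1.

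**Figure D1:**
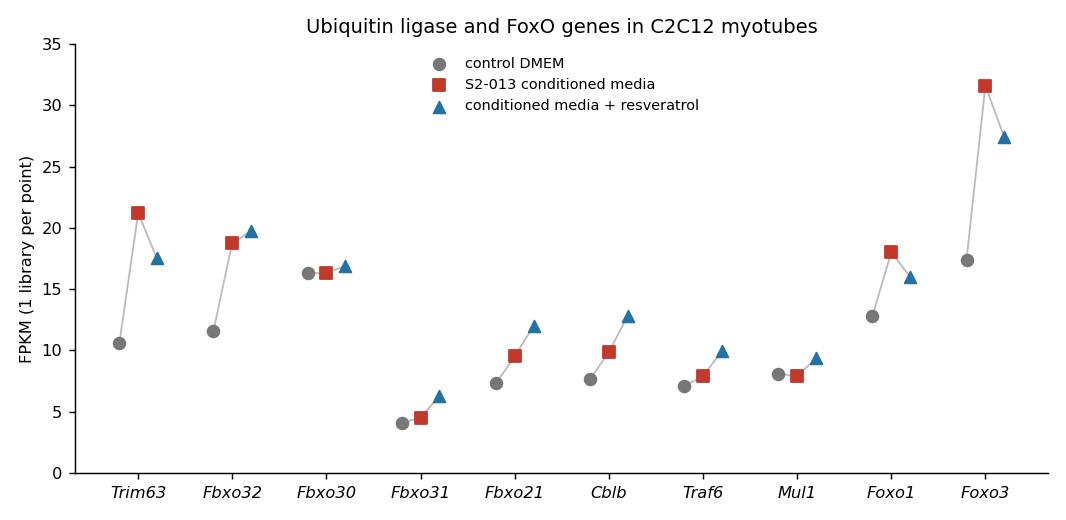
FPKM of the 10 genes (y axis, linear) in the control, conditioned media and conditioned media with resveratrol libraries, 1 library per point, with grey lines joining the values of a gene. Trim63, Foxo1 and Foxo3 peak in conditioned media, at 21.2, 18.0 and 31.6 FPKM, whereas Fbxo31, Fbxo21, Cblb and Traf6 are higher in each step from control to the resveratrol library.

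Because FPKM is scaled by transcript length, levels can be set beside each other across genes. In control the order ran from Foxo3 (17.4 FPKM) through Fbxo30 (16.3), Foxo1 (12.8), Fbxo32 (11.6), Trim63 (10.6), Mul1 (8.10), Cblb (7.65), Fbxo21 (7.31) and Traf6 (7.09) to Fbxo31 (4.09). Foxo3 was first and Fbxo31 last in every library. Trim63 ranked 5, 2 and 3 in control, conditioned media and conditioned media with resveratrol, while Fbxo30 went from 2 to 5 and 4. The 10 genes summed to 103, 146 and 148 FPKM in control, conditioned media and conditioned media with resveratrol.

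Trim63 (locus XLOC_014879) lies on chromosome 4, positions 134315120 to 134329629 of mm10, plus strand, with no other locus of the table over it. Its FPKM was 10.6 in the control library, 21.2 in conditioned media and 17.5 when resveratrol was added. The 2 conditioned media libraries were thus both above control, and the one without resveratrol was the higher. The log2 ratios, taken as log2 of (FPKM + 1) in one library over the other, were 0.93 for conditioned media over control, -0.26 for resveratrol over conditioned media and 0.67 for resveratrol over control. The first exceeded the ratio of 97.6% of the 11858 loci that passed the filter. Among 5064 loci of like level (a mean FPKM from 0.5 to 2 times that of Trim63), 62 had a ratio as high.

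Promoter sequence upstream of the RefSeq start (build GRCm38.p6) was at hand for 9 members, all but Fbxo32. Sequences are shown for Trim63, the only member with the FoxO core motif GTAAACA, for Traf6, the only one with the related motif CAAAACA, and for Foxo3, the factor gene with the highest level, which held neither. Each run is the 250 bases before the RefSeq start, 5′ to 3′ on the gene's strand, at chr4:134314870-134315119 (plus strand), chr2:101678170-101678419 (plus strand) and chr10:42276696-42276945 (minus strand). The Foxo3 and Fbxo30 windows lie inside the spans of the measured loci, and the Fbxo21 window runs into its locus. These windows are therefore not wholly upstream of the measured loci. Capitals mark the FoxO motifs, read on either strand, and a TATA box (TATAAA).
Trim63: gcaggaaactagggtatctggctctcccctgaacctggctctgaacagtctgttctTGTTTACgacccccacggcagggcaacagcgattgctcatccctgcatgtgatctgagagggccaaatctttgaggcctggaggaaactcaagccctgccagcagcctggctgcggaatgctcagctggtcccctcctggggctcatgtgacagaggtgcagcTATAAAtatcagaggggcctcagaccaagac
Traf6: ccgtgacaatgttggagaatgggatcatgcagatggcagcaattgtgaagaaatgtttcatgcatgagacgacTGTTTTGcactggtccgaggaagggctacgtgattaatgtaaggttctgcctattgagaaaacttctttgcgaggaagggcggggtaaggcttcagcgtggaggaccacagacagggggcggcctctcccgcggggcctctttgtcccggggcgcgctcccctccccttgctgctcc
Foxo3: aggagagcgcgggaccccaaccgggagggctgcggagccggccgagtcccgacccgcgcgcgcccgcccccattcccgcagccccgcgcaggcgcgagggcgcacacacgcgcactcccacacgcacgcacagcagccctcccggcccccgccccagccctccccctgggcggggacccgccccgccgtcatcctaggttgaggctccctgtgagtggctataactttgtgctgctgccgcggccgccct

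In Trim63 the FoxO core lay on the minus strand from -194 to -188, counting the base before the start as -1, and the TATA box from -31 to -26. An E-box of the form bound by myogenic factors, CAGCTG, lay from -72 to -67. Among 32851 promoters of the same length, 3.17% held GTAAACA, 5.56% CAAAACA, 12.4% TATAAA and 13.0% CAGCTG on at least 1 strand. Of the other 8 members, 0 held TATAAA or CAGCTG. The STAT motif TTCNNNGAA was in 0 of 9 (7.02% of all promoters), and a loose NF-κB element (GGG, any 5 bases, CC) in 8 of 9 (45.8% of all), Mul1 being without it. Overlapping matches on both strands counted once per promoter. The Foxo3 window was 76.4% G and C with 31 CG pairs and the Trim63 window 56.8% with 4, against medians of 52.4% and 6 over all promoters. All 9 windows lay above that median of G and C, from 54.4% for Mul1 to 80.4% for Fbxo30. The fixed letters of the NF-κB element are all G or C, and the part of base composition in its count was not tested. A match describes these letters and is no evidence of binding.

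Fbxo32 (XLOC_007462, chromosome 15, positions 58175879 to 58214892, minus strand) had 11.6 FPKM in the control library, 18.8 FPKM in conditioned media and 19.7 FPKM when resveratrol was added. It differs from Trim63 in that the resveratrol library was not below the conditioned media library. The log2 ratios were 0.66, 0.06 and 0.72 in the order used for Trim63, and 160 of 5047 loci of like level had as high a ratio in conditioned media over control. GENCODE M21 places an antisense gene, Gm15943, over 458 bases of Fbxo32, and without a known strand setting reads of the pair cannot be told apart.

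The other 3 F-box genes differed from Fbxo32 and from each other. Fbxo30 (MUSA1, chromosome 10, positions 11281330 to 11297969), an F-box gene that BMP signalling holds down in muscle, had 16.3 FPKM in both the control and the conditioned media library and 16.9 FPKM when resveratrol was added. It was the flattest of the members, with log2 ratios of 0.00, 0.05 and 0.05. Fbxo21 (SMART, chromosome 5, positions 117976734 to 118010193), a FoxO-dependent F-box gene of denervated muscle, was at 7.31, 9.50 and 12.0 FPKM in control, conditioned media and conditioned media with resveratrol, with a log2 ratio of 0.64 for resveratrol over control. Fbxo31 (chromosome 8, positions 121549443 to 121578806), whose product targets cyclin D1 and which is also listed among FoxO-dependent atrophy genes, was at 4.09, 4.51 and 6.29 FPKM, with a larger log2 ratio for resveratrol over conditioned media (0.40) than for conditioned media over control (0.11). A GENCODE model on the opposite strand, Gm20388, spans the whole of Fbxo31.

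Of the RING ligases other than Trim63, Cblb and Traf6 were higher in each step, and Mul1 lay near its control level in conditioned media. Cblb (chromosome 16, positions 52031549 to 52208046), which targets the insulin receptor substrate IRS1 in unloaded muscle, was at 7.65, 9.86 and 12.8 FPKM in control, conditioned media and conditioned media with resveratrol. Its steps were of like size, with log2 ratios of 0.33 and 0.35, adding to 0.68 over control. Its paralog Cbl was at 7.53, 7.45 and 5.63 FPKM in the same order, below control with resveratrol. Traf6 (chromosome 2, positions 101678420 to 101701668), which builds ubiquitin chains that activate NF-κB and is needed for full atrophy, was at 7.09, 7.89 and 9.93 FPKM (log2 ratio 0.43 for resveratrol over control). Mul1 (chromosome 4, positions 138434672 to 138442265), a ligase of the mitochondrial outer membrane that acts on mitofusin 2, had 8.10, 7.89 and 9.34 FPKM and log2 ratios of -0.03, 0.22 and 0.18. A snoRNA gene, Gm23513, lies within Cblb on the opposite strand.

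Both FoxO factor genes had the pattern of Trim63. Foxo3 (chromosome 10, positions 42181709 to 42277280, minus strand) had 17.4 FPKM in the control library, 31.6 FPKM in conditioned media and 27.4 FPKM when resveratrol was added. The log2 ratio of 0.82 for conditioned media over control was reached by 62 of 4355 loci of like level. Foxo1 (chromosome 3, positions 52268337 to 52350110, plus strand), the factor also raised in fasting muscle, had 12.8, 18.0 and 16.0 FPKM and log2 ratios of 0.46, -0.16 and 0.30. It shares its span with GENCODE models Gm20402, on the opposite strand, and Gm38034. The family's other genes did not peak in conditioned media: Foxo4 was at 11.2, 13.0 and 16.4 FPKM and Foxo6 at 4.21, 4.18 and 3.11 FPKM. Foxo3 made up 38.1%, 47.4% and 43.5% of the summed FPKM of these 4 genes.

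The MuRF family was divided. Trim54 (MuRF3) and Trim55 (MuRF2), sarcomere-bound relatives of Trim63, were lower in conditioned media, at 27.2, 19.1 and 21.7 FPKM and at 34.0, 21.6 and 31.2 FPKM in control, conditioned media and conditioned media with resveratrol. Trim63 was the least abundant of the 3 in control, with 14.8% of their summed FPKM, and close to Trim55 in conditioned media, with 34.2% against 34.9%. With resveratrol the share of Trim63 was 24.9%. The sum itself was 71.9, 61.9 and 70.4 FPKM. Fbxo40, an F-box gene of adult muscle that targets IRS1, was below 1 FPKM in all 3 libraries (0.375, 0.168 and 0.171).

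**Figure D2:**
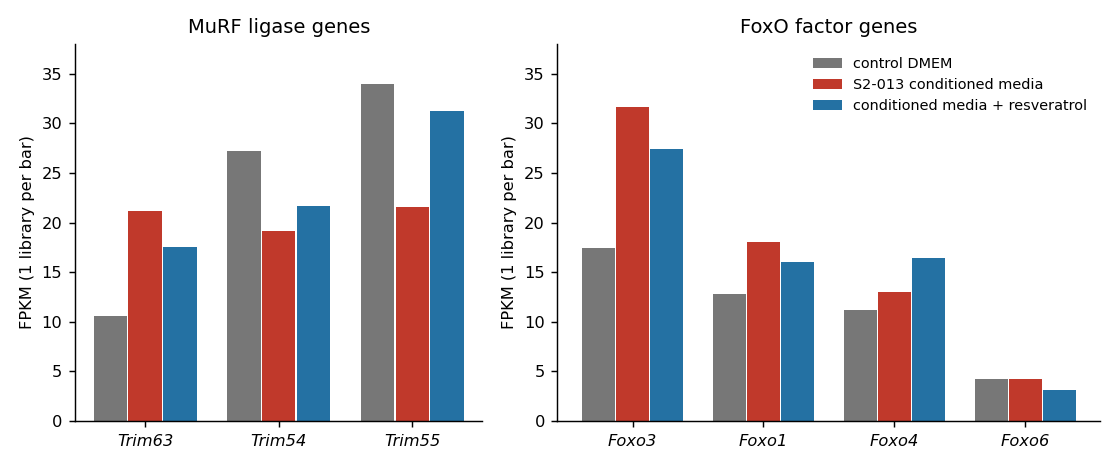
FPKM (y axis, linear from 0) of the MuRF ligase genes and of the FoxO genes in the 3 libraries, 1 library per bar. Trim63 is highest in conditioned media, where Trim54 and Trim55 are lowest, and Foxo3 is the highest FoxO gene in each library.

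The comparison of conditioned media with control asks what the cancer cells' medium changed in these genes. A locus counted as past the size rule when its log2 ratio was 1 or more either way. Of the 10 members 0 passed it, against 2.73% of all 11858 loci (1.98% higher and 0.751% lower). At a threshold of 1.5 times, taken on FPKM + 1 here and below, 3 of 10 were higher (Trim63, Fbxo32 and Foxo3) and 0 lower. Of all loci 7.43% were higher and 4.92% lower. The median log2 ratio of the members was 0.33 beside -0.011 over all loci, and 9 of 10 ratios were above 0, where 48.7% of loci were. The authors' deposited table calls 6 of the 10, all higher (Trim63, Fbxo32, Foxo3, Foxo1, Fbxo21 and Cblb), but it also calls 55.7% of the loci it tested, 25.8% higher and 29.9% lower. Its calls compare 2 libraries and cannot speak for the media. Trim63 and Foxo3 passed the size rule (log2 ratios 1.11 and 1.01) when FPKM were rescaled to a common sum over all loci, where 3.11% of loci were higher by it. With the sum over loci longer than 200 bases their ratios were 0.85 and 0.74 and 0 members passed. Fbxo32 fell under the threshold of 1.5 times with that second sum and at a pseudocount of 5. Foxo1 reached that threshold with the first sum, where 12.7% of loci were higher.

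The comparison of resveratrol in conditioned media with conditioned media alone asks what the compound changed. Ratios were small: from -0.26 for Trim63 to 0.40 for Fbxo31, with a median of 0.14 beside 0.025 over all loci. None of the 10 reached 1.5 times in either direction, against 20.2% of loci (7.59% higher and 12.6% lower), and none passed the size rule, against 6.5% (1.53% higher and 4.97% lower). By sign the members split into Trim63, Foxo1 and Foxo3, which were lower, and the other 7, which were higher, as were 52.5% of loci. The authors' deposited table calls the first 3 lower, with q-values of 0.00175, 0.00786 and 0.000148, and calls 5 higher (Fbxo31, Fbxo21, Cblb, Traf6 and Mul1), against 63.6% of loci called (34.1% higher and 29.5% lower). It calls neither Fbxo32 (q = 0.217) nor Fbxo30 (q = 0.507).

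Set against control, the resveratrol library had all 10 members above 0, as 50% of loci were, from 0.05 for Fbxo30 to 0.72 for Fbxo32, with a median of 0.57 beside 0.000 over all loci. None passed the size rule, which 8.85% of loci did (3.6% higher and 5.25% lower). At 1.5 times, 5 of 10 were higher (Trim63, Fbxo32, Fbxo21, Cblb and Foxo3), against 11.4% of loci higher, and 0 were lower, against 14% of loci. That count was 0 at a pseudocount of 5 and when FPKM were rescaled to a common sum over loci longer than 200 bases, where 5.48% and 7.57% of loci remained higher. It was 6 at a pseudocount of 0.1, with Fbxo31 (1.54 times control in FPKM itself) added, where 14.1% of loci were higher. After rescaling over all loci it was 7, with Fbxo31 and Traf6 added, where 19.6% of loci were higher. The authors' deposited table calls 9 higher, all but Fbxo30, and 68.2% of its loci in either direction (34.1% higher and 34.1% lower). Both comparisons with control share the control library, so their values stand side by side and are not independent.

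**Figure D3:**
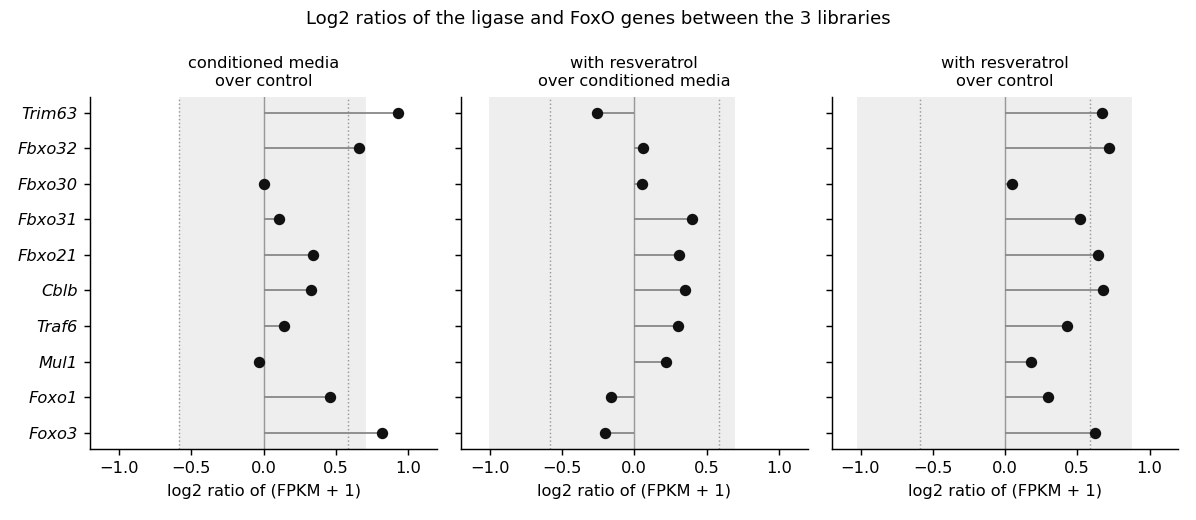
Log2 ratios of (FPKM + 1) for the 10 genes (x axis) in the 3 comparisons, with the grey band from percentile 5 to percentile 95 of all 11858 loci and dotted lines at 1.5 times. Trim63 at 0.93 and Foxo3 at 0.82 lie past the band's upper edge of 0.70 for conditioned media over control, and every gene lies inside the band in the other 2 panels.

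Genes with the most similar pattern were found by the larger of the differences in the 2 log2 ratios over control, across 3 libraries and 8624 genes with a mean of 5 FPKM or more. For Trim63 they were Mettl15, a mitochondrial rRNA methyltransferase gene (difference 0.023), the deubiquitinase gene Usp22 (0.041), the citrate carrier gene Slc25a1 (0.044), the mitophagy receptor gene Bnip3 (0.051) and the heparanase gene Hpse (0.054). For Fbxo32 they were the stress-induced Trp53inp1 (0.017), the kinase gene Plk2 (0.022), the ceramidase gene Asah2 (0.022), Nrbp2 (0.025) and Eid1 (0.040). Within a difference of 0.1 lay 12 genes for Trim63 and 29 for Fbxo32. With 3 libraries many genes fall close by, and the likeness is a description.

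FoxO target genes from the literature, without the members, were mostly above control, and further above it with resveratrol. The list was chosen with earlier results of these data known, so its counts beside all loci are a description. Of 26 with a mean of 1 FPKM or more (of 27 listed), 21 had ratios above 0 in conditioned media, where 48.7% of loci did, and the median was 0.28. At 1.5 times 4 were higher (2 to 7 under the alternatives), against 7.43% of loci, and 0 lower. Resveratrol over conditioned media gave 25 of 26 above 0, 14 higher at 1.5 times (9 to 14 under the alternatives) against 7.59% of loci, 0 lower, and a median of 0.60. Over control, 25 of 26 were above 0, 17 higher at 1.5 times (14 to 23 under the alternatives, 11.4% of loci as reported), 9 past the size rule (3.6% of loci were higher by it) and the median was 0.75. The median stayed above 0 in all 3 comparisons under each alternative scaling, pseudocount and filter tried.

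Txnip, a brake on glucose uptake, was the target furthest above control, at 48.4, 168 and 299 FPKM in control, conditioned media and conditioned media with resveratrol, although another locus of the table overlaps its span. Bcl2l11, the pro-death BIM gene, stood at 3.38, 6.98 and 14.8 FPKM, and Sesn3, a stress-induced inhibitor of mTORC1, at 16.0, 25.7 and 32.6 FPKM. All 3 were higher in both steps, unlike Trim63 and Foxo3.

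Bnip3, at 184, 364 and 291 FPKM, was the only target of the 26 that was lower with resveratrol than in conditioned media alone. Gadd45a, a stress gene that promotes atrophy in denervated muscle, stood at 115, 132 and 309 FPKM, with log2 ratios of 0.20 for conditioned media over control and 1.22 for resveratrol over conditioned media. Zfand5, which helps the proteasome and is raised in wasting muscle, was at 14.2, 18.1 and 32.1 FPKM, and the autophagy genes Ulk2 and Atg12 had log2 ratios of 0.83 and 0.84 for resveratrol over conditioned media. Becn1, an autophagy initiation gene, was the only target of the 26 that was below control with resveratrol, at 42.6, 35.5 and 38.9 FPKM.

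**Figure D4:**
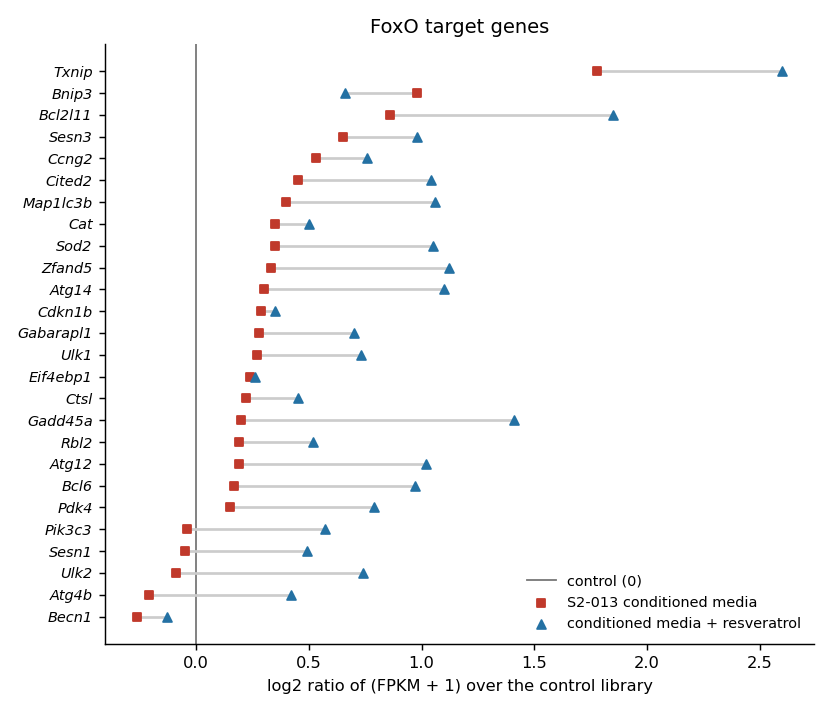
Log2 ratio of (FPKM + 1) over the control library (x axis) for the 26 FoxO target genes, with squares for conditioned media and triangles for conditioned media with resveratrol. The triangle lies right of the square for 25 genes, Bnip3 being the exception, and Txnip is furthest right at 1.78 and 2.60.

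Genes that govern FoxO were divided. Among 24 FoxO relatives and regulators the median ratio in conditioned media was 0.02 (from -0.06 to 0.19 under the alternatives), 12 genes lay above 0, and only Pik3ip1 reached 1.5 times. Pik3ip1, a membrane inhibitor of PI3 kinase, stood at 6.76, 17.8 and 17.5 FPKM in control, conditioned media and conditioned media with resveratrol, in a span it shares with 7 other loci. Akt1, the kinase that excludes FoxO from the nucleus, was at 102, 77.1 and 77.4 FPKM and Insr, the insulin receptor, at 6.73, 9.35 and 10.5 FPKM.

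With resveratrol the insulin receptor substrate genes differed in direction. Irs1, whose protein Cblb and Fbxo40 target, was at 29.4, 34.2 and 8.90 FPKM in control, conditioned media and conditioned media with resveratrol (log2 ratio -1.83 over conditioned media). Irs2, itself a FoxO target in other tissues, was at 2.54, 2.75 and 6.58 FPKM (log2 ratio 1.02). The deacetylase gene Sirt1 had a log2 ratio of 1.19 and the PI3 kinase gene Pik3cb one of 0.82. Of the 24 genes, 17 had ratios above 0 for resveratrol over conditioned media, where 52.5% of loci did. At 1.5 times 3 were higher (1 to 3 under the alternatives) and 1 lower, against 7.59% and 12.6% of loci.

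Other muscle ligase genes lay on both sides of control in conditioned media. The median over 22 measured was 0.00 (from -0.09 to 0.18 under the alternatives), 11 lay above 0, 0 reached 1.5 times higher (1 after rescaling over all loci), and Trim55 alone was lower by that much. Wwp1, a HECT ligase, had a log2 ratio of 0.41 and Huwe1, the ligase of MyoD, one of -0.39. For resveratrol over conditioned media 14 of the 22 lay above 0, where 52.5% of loci did, with a median of 0.08. At 1.5 times 3 were higher and 0 lower, against 7.59% and 12.6% of loci. The genes of the sarcomere-stabilising Kelch proteins were 2 of these, with Klhl40 at 17.1, 19.1 and 37.8 FPKM and Klhl41 at 104, 109 and 199 FPKM in control, conditioned media and conditioned media with resveratrol. The third was Trim72 (MG53, a membrane repair ligase that targets IRS1), at 71.0, 54.4 and 92.2 FPKM. Rnf115 had a log2 ratio of 0.52. Over control 2 were higher at 1.5 times and 2 lower, against 11.4% and 14% of loci. The lower ones were Huwe1 (log2 ratio -0.85) and Ubr1 (-0.62).

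The shared machinery of the ligases lay slightly below control in conditioned media on the deposited scale. Of 8 measured genes of the SCF core and of neddylation, which activates it, 7 had ratios below 0 (median -0.16, all loci -0.011) and 0 reached 1.5 times. Cul1, the scaffold that carries Fbxo32 and the other F-box proteins, had the lowest log2 ratio of them, -0.55, with 54.7, 37.1 and 32.2 FPKM in control, conditioned media and conditioned media with resveratrol. Among 24 genes of ubiquitin, its activating and conjugating enzymes and its proteases, 9 lay above 0 in conditioned media (48.7% of loci did, list median -0.13) and 20 for resveratrol over conditioned media (52.5% of loci did, list median 0.21). Ube2b, a conjugating enzyme gene of wasting muscle, was at 64.6, 74.0 and 98.7 FPKM. Both conditioned media medians turned positive, to 0.03 and 0.06, when FPKM were rescaled to a common sum over all loci, which raised the median over all loci to 0.17.

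Relatives and partners of Traf6 were divided with resveratrol. Of 20 measured, 6 had ratios above 0 over control, where 50% of loci did, and the median was -0.26. By the size rule 2 were lower, against 5.25% of loci, and 0 higher. Over conditioned media, 8 of 20 lay above 0, 0 passed the size rule and the median was -0.08. These 2 were Traf4, at 37.6, 20.3 and 14.9 FPKM in control, conditioned media and conditioned media with resveratrol, and Irak2, a kinase upstream of Traf6, at 14.9, 11.5 and 5.78 FPKM. Tifa, whose product binds Traf6, and the deubiquitinase genes Tnfaip3 (A20) and Cyld had log2 ratios of -0.89, -0.78 and -0.75 for resveratrol over conditioned media. Sqstm1 (p62), a scaffold that binds Traf6, had a log2 ratio of 0.95 over control.

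Reported substrates of the ligases were also measured, at the mRNA level only. Of 14 with a mean of 1 FPKM or more, 6 lay above 0 in conditioned media (median -0.08, from -0.17 to 0.12 under the alternatives), where 48.7% of loci did. For resveratrol over conditioned media 11 lay above 0 (median 0.46), where 52.5% of loci did. At 1.5 times 4 were higher and 1 lower in that second comparison, against 7.59% and 12.6% of loci. Myod1, the myogenic factor that atrogin-1 targets, had log2 ratios of -0.75 and 0.85 in these comparisons, and the fast regulatory light chain Mylpf, a thick filament gene, was at 1766, 1318 and 1832 FPKM in control, conditioned media and conditioned media with resveratrol. Myh8, the perinatal myosin heavy chain, had a log2 ratio of 1.35 for resveratrol over conditioned media. Mfn2, the mitofusin that Mul1 targets, was at 27.5, 25.1 and 21.2 FPKM. Myh1, Myh4 and Myh7 were not analysed here.

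Of 8 measured genes of the glucocorticoid response, a hormone signal that raises Trim63 and Fbxo32, 7 lay above 0 in conditioned media (median 0.32), where 48.7% of loci did. Cebpd alone passed the size rule, with a log2 ratio of 1.15, where 1.98% of loci were higher by it. Zbtb16, of the same list, was at 0 FPKM in all 3 libraries. Klf9, a direct receptor target, was at 6.30, 9.38 and 11.1 FPKM in control, conditioned media and conditioned media with resveratrol, while Fkbp5, the most used marker of the response, was at 10.8, 8.04 and 14.8 FPKM and so lowest in conditioned media.

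**Figure D5:**
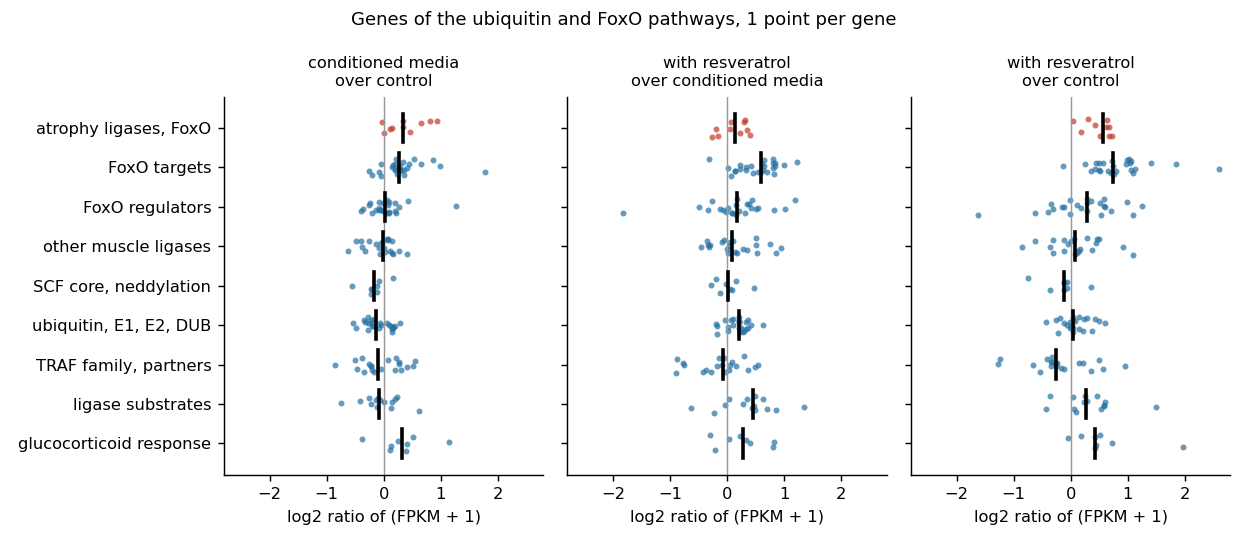
Log2 ratios of (FPKM + 1) (x axis) for each gene of the named lists with a mean of 1 FPKM or more, with the median as a black bar, in the 3 comparisons. The 10 ligase and FoxO genes (red, top row) have medians of 0.33, 0.14 and 0.57, and the FoxO targets 0.28, 0.60 and 0.75. Points are jittered vertically.

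Another locus of the table overlaps the spans of Trim55, Klhl40, Ubr1, Akt1, Irs2, Gadd45a, Becn1, Traf4, Klf9, Cebpd, Myh3, Ckm and Ryr1, and 2 overlap Huwe1. The libraries were checked for cell identity. All 14 myotube markers were measured, Myog, Myh3 and the membrane fusion gene Tmem8c among them, and their summed FPKM was 4606, 4109 and 5927, so the cells carry myotube genes although the cell type label reads myoblast. Of the 14, 11 were below control in conditioned media. With resveratrol 10 were above conditioned media alone, where 52.5% of loci were, while Ttn, Ckm, Tnnc2 and Ryr1 were lower in each step. The 10 markers of cycling cells summed to 247, 326 and 65.1 FPKM, with all 10 lower in the resveratrol library. Markers of undifferentiated reserve myoblasts (8 genes) summed to 232, 262 and 280 FPKM, although 6 of the 7 at 1 FPKM or more were lower with resveratrol than in conditioned media alone. Those of fibroblasts (6 genes) summed to 37.5, 63.6 and 54.1 FPKM, with Dcn and Pdgfra in the same order of libraries as Trim63 and Foxo3, Dpt in the opposite direction (4.39, 3.78 and 2.98 FPKM), and Lum, Thy1 and Col15a1 below 1 FPKM in each. The 5 adipocyte markers and 5 of 6 macrophage markers were below 1 FPKM in each library, with Ptprc, Adgre1 and Lep listed at 0 in all 3. The exception was the lysosomal macrophage marker Cd68, at 1.02, 1.49 and 1.82 FPKM. The part of these markers in the results above was not tested. In such bulk RNA, fewer cells of a type and less RNA per cell cannot be told apart.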

How the data were processed

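RNA sequencing of 3 C2C12 libraries was used, 1 per treatment label. The build was mm10, per the submitters' processing notes, which also name Cuffdiff 2.2.1.3, TopHat2 2.1.0, Trim Galore 0.4.3.1, Cufflinks 2.2.1.0, Bowtie and FastQC 0.69. The annotation, the strand setting, the scaling between libraries and the way Cuffdiff estimated its spread were not given in the sources used here. Per the file headers, the FPKM values, the log2 fold changes without a pseudocount, the test statistic (a score), the p-values and the q-values are the authors'.

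No step of whole reads was found: of 4286 low loci, at most 9 shared a ratio of conditioned media to control to 4 significant digits, so depth and counting error are unknown. FPKM summed to 3384770, 2953954 and 2956883 in control, conditioned media and conditioned media with resveratrol, of which 83.0%, 79.3% and 78.4% lay in 406 loci of 200 bases or less.

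Ratios were computed with pandas 2.3.3 as log2((FPKM + 1)/(FPKM + 1)), without a test. The code was checked on simulated data without the pseudocount only. Loci with a mean of 1 FPKM or more (11858) gave the background. Table starts count from 0 (adding 1 gave the RefSeq start for 10456 of 22218 symbols, against 611 unchanged) and were converted to 1-based. Of several loci of a symbol, that with the highest mean was taken. Promoters came from RefSeq, GRCm38.p6, and overlaps from GENCODE M21. The 10 members, the 14 other lists (207 entries) and the rules were chosen with earlier results of these data known. Named were every member, up to 4 genes per list and comparison by absolute ratio, 5 genes of like pattern for Trim63 and Fbxo32, and Foxo4, Foxo6, Trim54, Trim55 and Fbxo40. Some of the genes this rule names are left out. Becn1, Mfn2, Cbl, Zbtb16 and the marker genes were named beside them after their values were seen. Alternatives were the pseudocount, the filter, 2 rescalings to a common sum (TPM over all loci, or over loci longer than 200 bases, brought back to the mean FPKM sum), centring on the median, the threshold and summed loci.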

Additional observations from a re-analysis of the deposited data

How the results depend on the processing

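No paired analysis was possible because each group held 1 library, and no library could be left out for the same reason. For conditioned media over control, rescaling to a common sum over all loci put 2 members past the size rule and raised their median log2 ratio to 0.51, and a threshold of 1.5 times gave 3 members. For resveratrol over control, the median was 0.39 at a pseudocount of 5, 0.74 after rescaling over all loci and 0.44 after rescaling over loci longer than 200 bases. The threshold of 1.5 times gave 5 members. That count, tried under these alternatives after seeing the data, was 0 at a pseudocount of 5 and 0 after the second rescaling. It was 6 at a pseudocount of 0.1 and 7 after rescaling over all loci. The cause was not tested, beyond the shift that a rescaling adds to every ratio: over all loci it moved the median ratio of conditioned media and of resveratrol over control to 0.17 and 0.18, and over longer loci to -0.09 and -0.13. It also moved the share of loci past the size rule that were higher, from 72.5% to 88.3% and 62.8% for conditioned media over control and from 40.7% to 60.7% and 26.4% for resveratrol over control. Of 180 single ratios recomputed for the members, 139 moved by less than 0.1, 39 by more and 2 crossed the size rule. The 139 include the ratios with summed loci, which could not move because each member has 1 locus. Ratios that changed sign were those of Mul1 and Fbxo30 in conditioned media over control (ranges -0.11 to 0.14 and -0.08 to 0.18) and of Fbxo30 in both resveratrol comparisons (-0.01 to 0.05 and -0.09 to 0.23). Trim63, Foxo1 and Foxo3 were below conditioned media with resveratrol under every alternative tried. Sequencing depth is unknown, so counting error could not be computed for any value.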

Other observations

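Other genes named as F-box only proteins were divided. Of 22 measured besides the 4 described, 14 had ratios above 0 for resveratrol over conditioned media, where 52.5% of loci did, with a median of 0.11. By the size rule 3 were higher and 1 lower, against 1.53% and 4.97% of loci. The ones furthest out, chosen after their values were seen, were Fbxo33 at 4.76, 3.37 and 11.5 FPKM in control, conditioned media and conditioned media with resveratrol, Fbxo36 at 5.06, 7.38 and 17.2 FPKM, Fbxo9 at 11.9, 8.25 and 17.7 FPKM and Fbxo5 (EMI1, an inhibitor of the anaphase-promoting complex) at 10.6, 9.03 and 3.90 FPKM. Their log2 ratios for resveratrol over conditioned media were 1.51, 1.12, 1.01 and -1.03, each larger than that of any of the 10 ligase and FoxO genes. Another locus overlaps Fbxo36.

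The 33 TRIM genes measured besides Trim63 include Trim54, Trim55 and Trim72, described above. Of these 33, 11 had ratios above 0 for resveratrol over control, where 50% of loci did (median -0.29). By the size rule 4 were lower, against 5.25% of loci: Trim47 at 37.0, 34.7 and 12.1 FPKM, Trim46 at 6.71, 4.66 and 2.12 FPKM, Trim14 at 5.23, 4.67 and 1.70 FPKM and Trim21, the cytosolic antibody receptor, at 11.8, 8.62 and 5.40 FPKM. Trim62, at 0.790, 0.932 and 2.86 FPKM, was the only one past it on the higher side, where 3.6% of loci were.

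Many calls in the authors' deposited table have a small test statistic. The cut of 1.96 used here comes from the normal curve, which the deposited p-values do not follow. A statistic under it therefore does not void a call. Of its 6118 calls for conditioned media over control, 2665 (43.6%) had an absolute statistic under 1.96, Cblb among them with a statistic of 1.93 and a p of 0.0001. For resveratrol over conditioned media the share was 34.9% of 7015, and Trim63 (-1.71), Foxo1 (-1.47), Cblb (1.75) and Mul1 (1.32) were among these calls.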
